A study of Sus scrofa with 3 samples.

Results

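The 10 mitotic genes KIF20A, KIF23, CENPF, BUB1, PLK1, CDK1, CCNB1, CDC20, CDCA3 and TOP2A were followed across 3 arrays of the porcine intestinal epithelial line PIE. A probe belonged to a member when the array name, an accession or the probe's description named the gene. 9 of the 10 genes were matched to 15 probes of a porcine array on which 6521 genes carried a symbol, and BUB1, a checkpoint kinase of the kinetochore, was matched to none and is not analysed here. The members were chosen by differences in signal between these same 3 arrays, so every value below is a description and none is a test.

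The study asked how pretreatment with a lactobacillus alters the response of these cells to a gut pathogen. PIE cells are a non-transformed line derived from the intestinal epithelium of an unsuckled newborn piglet. They were grown for 3 days on collagen-coated plates and received Lactobacillus jensenii TL2937, Lactobacillus plantarum TL2766 or control medium for 48 h. All cultures were then exposed for 12 h to ETEC PAMPs, pathogen-associated molecules of enterotoxigenic Escherichia coli. The groups are called TL2937+ETEC, TL2766+ETEC and ETEC, and each held 1 culture and 1 array. All 3 groups had the PAMPs. Unchallenged cells are not analysed here, so no value can be set against resting cells. A single array per group leaves the spread between cultures unmeasured, so no p-value is given, and the precision is limited by how few arrays there were. Group, culture and array position cannot be told apart.

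The line's label was set against marker genes. Among epithelial markers, EPCAM (13.7, 12.8 and 13.2 on the TL2937+ETEC, TL2766+ETEC and ETEC arrays) and KRT18 were not well above background on any array, and KRT8 gave dim signals of 18.0, 23.9 and 19.8. Of 10 epithelial markers on the array, 5, 5 and 6 were well above background, among them the tight-junction gene OCLN (923, 967 and 1140). All 6 endothelial markers were well above background on at least 2 arrays, with PECAM1 at 84073, 85385 and 86641 and CDH5 at 56612, 55888 and 60337. EPCAM and KRT18 were thus not well above background in these cultures, against the label. KRT8, CLDN3, CLDN7 and OCLN were so on all 3 arrays, all but OCLN dim. CDH1 (25.1, 8.63 and 17.2) was not so with TL2766+ETEC, and VIL1 (8.27, 14.2 and 21.5) not with TL2937+ETEC. The endothelial marker VWF was as dim, at 15.5, 13.8 and 22.7. KRT20 and CLDN4 were likewise not well above background on any array. ENG (16064, 15729 and 17334), TEK (2421, 2189 and 1339) and KDR (798, 753 and 532) were well above it on all 3 arrays. Apart from OCLN, the epithelial markers were thus dim or not well above background, against the label. Apart from VWF, the endothelial markers were not dim. The cells are called PIE cells here. Summed signals are given to compare the arrays within a list, not 1 list with another, since they add different probes. The epithelial list summed to 999, 1045 and 1239, mostly OCLN. The endothelial list summed to 159984, 159945 and 166205, and the 7 fibroblast and mesenchymal markers, all detected, to 284956, 300057 and 305462, mostly VIM (242810, 252388 and 251524). Leukocyte markers summed to 827, 868 and 718, of which CD14 gave 723, 741 and 622, and PTPRC was not well above background on any array.

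Mitosis is run by a short burst of gene products. CDK1 bound to cyclin B1 drives cells into mitosis, PLK1 and the kinetochore proteins oversee the attachment of chromosomes to the spindle, and CDC20 then switches on the anaphase-promoting complex, which marks cyclin B1 and securin for destruction. The kinesins KIF20A and KIF23 act last, on the central spindle where the cell divides. Transcripts of such genes build up in G2 and mitosis and decline in G1, so their level in a culture follows both the share of cells in those phases and the amount of RNA per cell. In RNA of whole cultures these cannot be told apart.

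The probes of the 4 genes that lead the group, and a second probe of CDK1, are shown because all later values rest on which stretch of a transcript was bound. Each is 60 bases long and is written 5′ to 3′ as the array design gives it. In the KIF20A probe the capitals mark codons of the kinesin P-loop, the stretch that binds ATP in the motor domain.
KIF20A: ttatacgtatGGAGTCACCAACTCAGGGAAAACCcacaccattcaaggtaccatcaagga
CENPF probe 1: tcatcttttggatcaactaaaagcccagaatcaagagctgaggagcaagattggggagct
CENPF probe 2: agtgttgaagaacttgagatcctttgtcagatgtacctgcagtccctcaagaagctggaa
CENPF probe 3: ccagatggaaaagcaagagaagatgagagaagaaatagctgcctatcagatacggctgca
CDC20: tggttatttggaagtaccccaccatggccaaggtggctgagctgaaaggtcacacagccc
PLK1: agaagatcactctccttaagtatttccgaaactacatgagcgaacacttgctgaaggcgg
CDK1 probe 2: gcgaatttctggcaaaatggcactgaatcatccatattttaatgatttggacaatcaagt
The P-loop codons begin at base 11 of the KIF20A probe. Their pattern, with the middle codons left free, was found on the strand given in 21 of 43603 gene probes (0.0482%). The reading frame was not checked, so a match need not be a kinesin. None of the 15 member probes shared a stretch of 20 bases with any other probe of the array. The GC content of the probes shown lay between 35.0% (CDK1) and 55.0% (CDC20).

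Values are scaled intensities: the spot's processed intensity divided by the array's 75th percentile and multiplied by 483, the geometric mean of the 3 percentiles. A gene is represented by its named probe with the highest mean signal, and signals of different probes are not compared. A ± value after a log2 difference is the scanner software's error of 1 spot per array. It was close to 0.20 for bright genes such as VIM, CDH5 and CDKN1A and larger for dim ones, so it mostly follows brightness. It is an error assigned to the reading of a spot, not a spread measured between spots or between cultures. The fold of 1.2 is used as a line for description, and the larger line is 2-fold.

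On the TL2766+ETEC array all 9 measured genes had lower signals than on the other 2 arrays. The members were chosen from these same arrays, and the share of all genes lowest on this array is not given here. The differences were small, and no gene reached 2-fold in any comparison. Against ETEC, the median log2 difference was -0.24, from -0.67 for KIF20A to -0.11 for KIF23. Between the lactobacillus arrays the genes were higher with TL2937 than with TL2766, by a median log2 difference of 0.45, a 1.36-fold difference. Against ETEC, the TL2937+ETEC array was 0.075 higher in the median. The ETEC signal thus lay between those of the lactobacillus arrays for 8 of the 9 genes, again without the share over all genes. The named KIF20A probe was brightest with ETEC alone. A brighter probe tied to KIF20A by description alone gave 170, 145 and 156 on the TL2937+ETEC, TL2766+ETEC and ETEC arrays, with ETEC between.

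**Figure D1:**
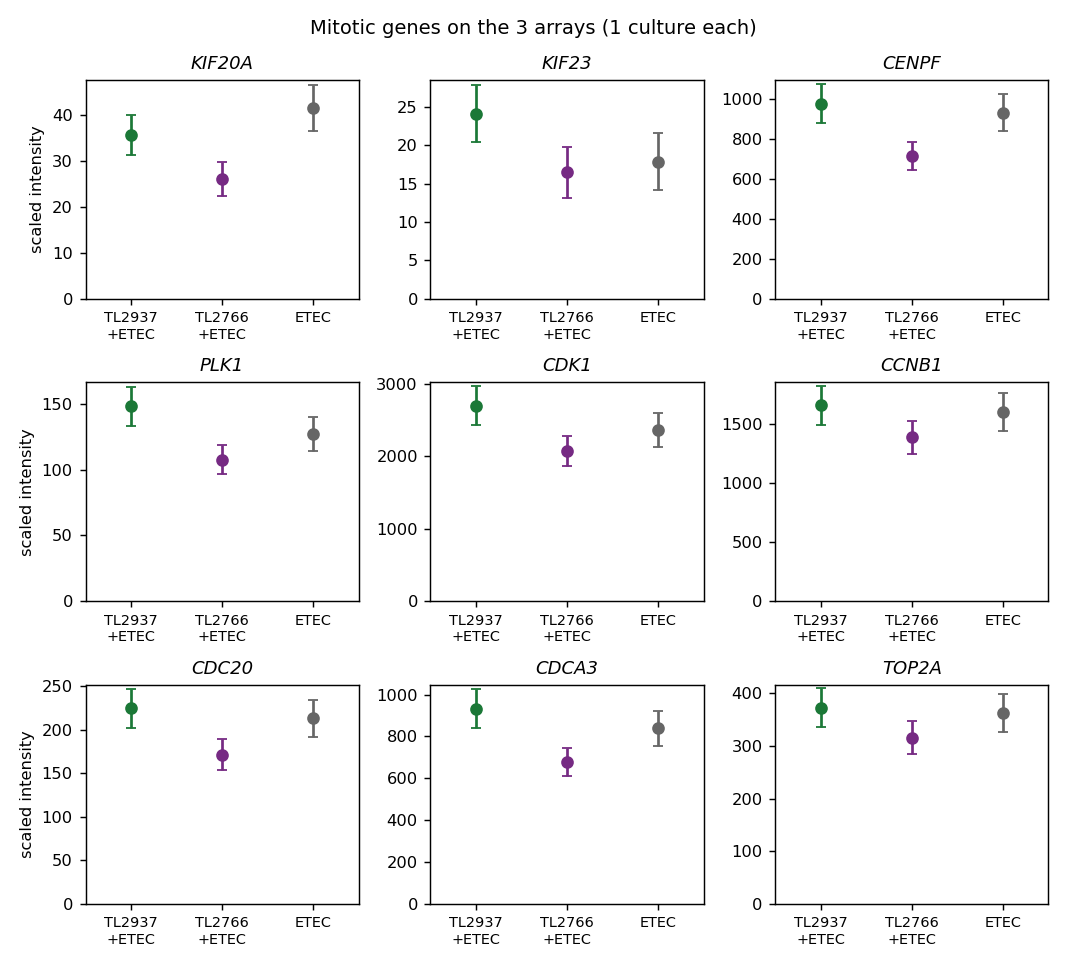
Scaled intensity (linear axis from 0) of the 9 measured mitotic genes on the TL2937+ETEC, TL2766+ETEC and ETEC arrays, 1 culture each, with the scanner software's error of the spot as bars. The TL2766+ETEC point is the lowest of the 3 in all 9 panels.

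Among the kinesins, KIF20A carries the chromosomal passenger complex to the central spindle. Its named probe gave 35.6 with TL2937+ETEC and 26.1 with TL2766+ETEC, against 41.4 with ETEC. All 3 signals were dim, since the lowest detected signals of the arrays were about 12 before scaling. The log2 difference was -0.67 ± 0.27 for TL2766+ETEC against ETEC, a 1.59-fold lower signal, and -0.22 ± 0.25 for TL2937+ETEC against ETEC. TL2937+ETEC was higher than TL2766+ETEC by 0.45 ± 0.27. Only the first of these exceeded 2 scanner errors. A normexp background correction, which adds an offset of 50 before the log is taken, gave -0.35 for TL2766+ETEC against ETEC and 0.12 for TL2937+ETEC against TL2766+ETEC.

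A further probe that only its description ties to KIF20A, by partial similarity to the dog protein, did not share the size of this difference. It gave 170 with TL2937+ETEC and 145 with TL2766+ETEC, against 156 with ETEC. Its log2 differences were -0.10 for TL2766+ETEC against ETEC, 0.13 for TL2937+ETEC minus ETEC and 0.23 for the lactobacillus pair. Both KIF20A probes were lowest on the TL2766+ETEC array, but they differed in sign for TL2937+ETEC against ETEC. Which of them follows the transcript better was not tested.

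KIF23 joins with RACGAP1 to form the centralspindlin complex of the dividing cell. Its named probe gave 24.2 with TL2937+ETEC and 16.5 with TL2766+ETEC, against 17.9 with ETEC. The log2 differences were 0.43 ± 0.37 for TL2937+ETEC against ETEC, -0.11 ± 0.42 for TL2766+ETEC minus ETEC and 0.55 ± 0.37 for the lactobacillus pair. With the normexp correction they were 0.032, -0.0080 and 0.040. Of the other 2 probes, tied to KIF23 by description alone, 1 was well above background on no array. The last gave 8.74 with TL2937+ETEC and 14.8 with TL2766+ETEC, against 11.8 with ETEC, and was well above background on the TL2766+ETEC array alone. Its order of the lactobacillus arrays was opposite to that of the named probe. KIF23 had the largest scanner errors of the 9 genes.

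CENPF is a large coiled-coil protein of the outer kinetochore that accumulates before mitosis and is destroyed after it. Probe 1, which stands for the gene, gave 978 with TL2937+ETEC and 716 with TL2766+ETEC, against 932 with ETEC. Probe 2 gave 284 and 233 on the lactobacillus arrays, against 304 with ETEC, and probe 3 gave 162 and 113, against 167. All 3 probes were lowest on the TL2766+ETEC array. For TL2766+ETEC against ETEC they gave log2 differences of -0.38 ± 0.20, -0.39 and -0.57. Between the lactobacillus arrays the differences were 0.45 ± 0.20, 0.29 and 0.52. For TL2937+ETEC against ETEC they were 0.069, -0.096 and -0.050, without a common sign.

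**Figure D2:**
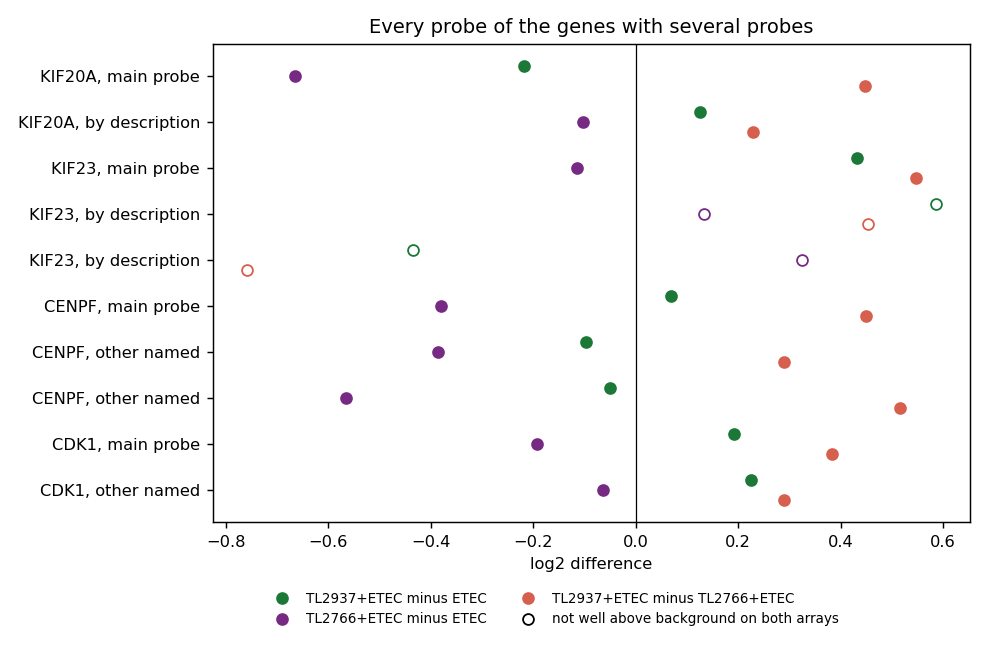
Log2 difference (horizontal axis) for each probe of KIF20A, KIF23, CENPF and CDK1 in the 3 comparisons, with open points where a probe was not well above background on both arrays. The 3 CENPF probes lie at -0.38, -0.39 and -0.57 for TL2766+ETEC minus ETEC, while the KIF20A probes lie at -0.67 and -0.10.

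PLK1, the polo-like kinase that acts from centrosome maturation to cytokinesis, gave 148 with TL2937+ETEC and 107 with TL2766+ETEC, against 127 with ETEC. Its log2 difference was 0.46 ± 0.21 between the lactobacillus arrays, -0.24 ± 0.21 for TL2766+ETEC against ETEC and 0.22 ± 0.21 for TL2937+ETEC against ETEC. With the normexp correction the lactobacillus arrays differed by 0.20, and TL2937+ETEC lay 0.034 above ETEC.

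CDK1, the kinase of mitotic entry, had a main probe at 2698 with TL2937+ETEC and 2067 with TL2766+ETEC, against 2361 with ETEC. Its second probe gave 2446 and 2002, against 2094 with ETEC. Both probes were highest with TL2937 and lowest with TL2766. The main probe differed by 0.38 ± 0.20 between the lactobacillus arrays and the second probe by 0.29. For TL2766+ETEC against ETEC the values were -0.19 ± 0.20 and -0.064, neither beyond the scanner error. CCNB1, which encodes cyclin B1, the partner of CDK1, gave 1659 with TL2937+ETEC and 1387 with TL2766+ETEC, against 1602 with ETEC. Its log2 differences were 0.26 ± 0.20 between the lactobacillus arrays, -0.21 ± 0.20 for TL2766+ETEC against ETEC and 0.050 ± 0.20 for TL2937+ETEC against ETEC.

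CDC20, the activator of the anaphase-promoting complex that ends the checkpoint, gave 225 with TL2937+ETEC and 172 with TL2766+ETEC, against 213 with ETEC. TL2766+ETEC was lower than ETEC by a log2 difference of -0.31 ± 0.21, a 1.24-fold difference, and TL2937+ETEC was 0.075 ± 0.21 above ETEC. CDCA3, a component of a ubiquitin ligase that favours mitotic entry by removing the inhibitory kinase WEE1, gave 934 with TL2937+ETEC and 679 with TL2766+ETEC, against 839 with ETEC. Its difference was -0.31 ± 0.20 for TL2766+ETEC minus ETEC and 0.46 ± 0.20 for the lactobacillus pair. TOP2A, the topoisomerase that untangles sister chromatids, carries the older name TOPOII on the array. It gave 373 with TL2937+ETEC and 316 with TL2766+ETEC, against 363 with ETEC. Its differences, -0.20 ± 0.20 for TL2766+ETEC minus ETEC and 0.24 ± 0.20 for the lactobacillus pair, were about the size of their scanner errors.

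For TL2766+ETEC against ETEC, 4 of the 9 genes (KIF20A, CENPF, CDC20 and CDCA3) were at least 1.2-fold lower, 5 were within 1.2-fold and 0 were at least 1.2-fold higher. Over all 4948 genes detected in this pair, 8.81% passed 1.2-fold downward and 8.14% upward. The lines of 2-fold held 0.243% of them lower and 0.323% higher, and no member. The median of all genes was 0.0028, and all 9 members lay below it. KIF20A and CENPF lay below the 5th percentile of all genes (-0.36). 6 of the 9 differences exceeded their scanner error, a count for which the share over all genes is not given here. Keeping only genes brighter than the median detected probe left 5 members, of which 2 were at least 1.2-fold lower, where 5.09% of all such genes were. Admitting probes named by description alone left 3 of 9 lower, without KIF20A, where 8.79% of all genes were.

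For TL2937+ETEC against TL2766+ETEC, 7 of the 9 genes were at least 1.2-fold higher and 2 (CCNB1 and TOP2A) were within 1.2-fold. Of 4989 genes detected in this pair, 4.25% passed 1.2-fold upward and 7.22% downward, and 0.0802% and 0.2% passed 2-fold in these directions. The median of all genes was -0.042 and their 95th percentile 0.24, and all 9 members lay above that percentile, TOP2A at its edge. All 9 differences exceeded 1 scanner error and 3 (CENPF, PLK1 and CDCA3) exceeded 2, again without the share over all genes. The members differed little among themselves here, between 0.24 and 0.55. With the normexp correction the median was 0.24 and 4 genes were at least 1.2-fold higher, against 0.783% of all genes, and with spike-in scaling all 9 were, against 5.69% of all genes.

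For TL2937+ETEC against ETEC, 1 of the 9 genes (KIF23) was at least 1.2-fold higher, where 7.38% of 4973 genes were, and 0 were at least 1.2-fold lower, where 12.3% were. 2-fold was passed by 0.241% of all genes upward and 0.141% downward. The members ranged from -0.22 to 0.43 around a median of 0.075, and the median of all genes was -0.038. 2 of the 9 differences, those of KIF23 and PLK1, exceeded their scanner error and none exceeded 2 such errors. The share of all genes that did so is not given here. Each array enters 2 of the 3 comparisons, so these are not independent of each other.

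**Figure D3:**
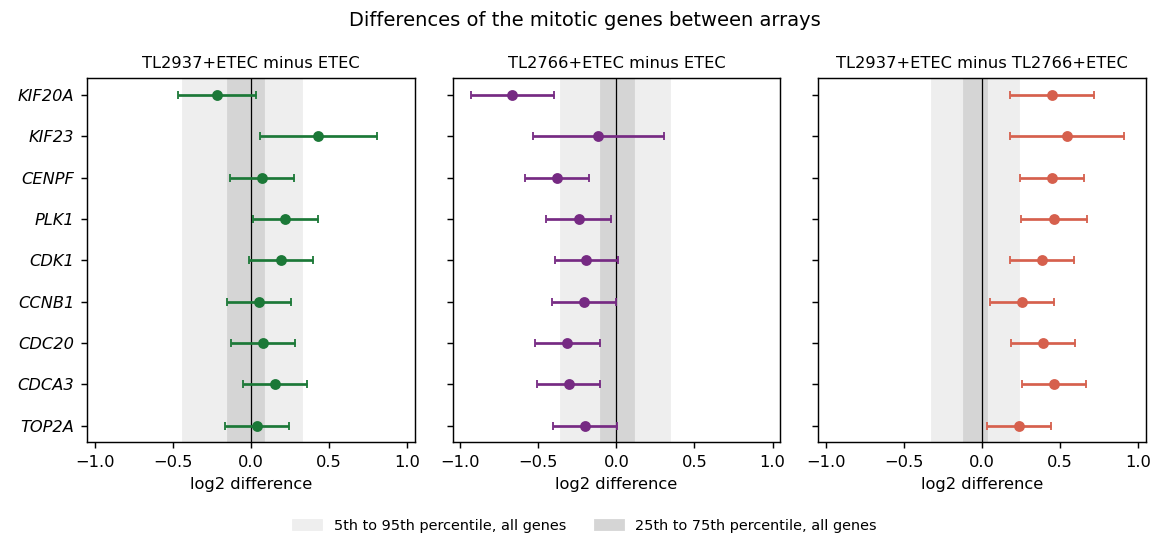
Log2 difference of each of the 9 measured mitotic genes in the 3 comparisons, with the scanner software's error as bars and the spread of all genes as grey bands. The points for TL2937+ETEC minus TL2766+ETEC lie between 0.24 and 0.55, and those for TL2766+ETEC minus ETEC between -0.67 and -0.11.

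Spots of the same probe gave a second measure of technical error. For the 27 probes present as 5 spots, a log2 difference had a median standard deviation of 0.11 for TL2937+ETEC against ETEC, 0.082 for TL2766+ETEC minus ETEC and 0.087 for the lactobacillus pair. It reached 0.45, 0.57 and 0.52 for the noisiest of these probes. Each member probe had 1 spot per array. The median spot spread was below the scanner software's errors of the members, 0.20 to 0.42, while the noisiest probes exceeded them, and neither measure covers cultures.

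Around the members, 6 lists held 135 other genes of mitosis and chromosome structure, of which 50 were matched to a probe by symbol. Each list is thus covered only in part. The lists are broad and also hold chromatin genes such as CDCA7, HMGB2 and H2AFZ. The medians of the 50 genes lay nearer to 0 than those of the members between the lactobacillus arrays and for TL2766+ETEC against ETEC. Between the lactobacillus arrays 14 of the 49 detected on both were at least 1.2-fold higher with TL2937, where 4.25% of all genes were. 0 were lower, where 7.22% of all genes were, and the median log2 difference was 0.18. For TL2766+ETEC against ETEC 7 of 48 were lower, where 8.81% of all genes were, and 3 (CDCA7, HMGB2 and CEP55) higher, where 8.14% were. The other 38 were within 1.2-fold, and the median of the 48 was -0.031. For TL2937+ETEC against ETEC 12 of 49 were higher, where 7.38% of all genes were, and 2 lower, where 12.3% were. The median was 0.13. No gene of these lists passed 2-fold.

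Of 19 listed genes of the spindle checkpoint and outer kinetochore, 5 were matched. Among these 5, 2 were at least 1.2-fold higher with TL2937 than with TL2766. That share was 4.25% over all genes. KNL1, the scaffold that recruits BUB1, gave 85.2 with TL2937+ETEC and 67.0 with TL2766+ETEC, against 84.3 with ETEC, a log2 difference of 0.35 between the lactobacillus arrays and -0.33 for TL2766+ETEC against ETEC. NUF2 and SPC25, of the NDC80 complex that binds microtubules, differed by 0.27 and 0.25 between the lactobacillus arrays, and by 0.20 and 0.15 for TL2937+ETEC against ETEC. SPC25 lay at -0.10 for TL2766+ETEC against ETEC. SGO1, which guards cohesion at centromeres, was above ETEC with both lactobacilli, at 0.34 with TL2937 and 0.16 with TL2766.

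Among 10 mitotic kinases, cyclins and their partners detected on both arrays, 5 exceeded ETEC by 1.2-fold or more with TL2937. The share over all genes was 7.38%. For TL2766+ETEC against ETEC 0 of the 10 were past 1.2-fold, where 8.81% of all genes were lower and 8.14% higher. CCNB2, the second B-type cyclin, gave 97.9 with TL2937+ETEC and 78.0 with TL2766+ETEC, against 88.4 with ETEC, the same order as CCNB1. Its log2 differences were 0.33 between the lactobacillus arrays and -0.18 for TL2766+ETEC against ETEC. NEK2, a centrosomal kinase, and CDC25C, the phosphatase that activates CDK1, differed by 0.30 and 0.29 between the lactobacillus arrays. CCNF (0.41), MASTL (0.33) and NEK2 (0.33) were highest above ETEC with TL2937. With TL2766, PBK lay at -0.23 and CCNF at 0.18.

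Genes of the anaphase-promoting complex and mitotic exit, PTTG1 and FZR1 among them, had medians near 0. These were 0.010, -0.026 and 0.083 for TL2937+ETEC minus ETEC, TL2766+ETEC minus ETEC and TL2937+ETEC minus TL2766+ETEC. PTTG1, or securin, which CDC20 targets for destruction, gave 3715 with TL2937+ETEC and 3344 with TL2766+ETEC, against 4144 with ETEC, and was thus below ETEC in both. Its log2 difference was -0.31 for TL2766+ETEC against ETEC. The subunit gene CDC23 differed by 0.35 between the lactobacillus arrays and by -0.17 for TL2766+ETEC against ETEC, and ANAPC5 by 0.26 and, for TL2937+ETEC against ETEC, 0.35. CDC27 lay at 0.13 for TL2766+ETEC against ETEC. FZR1, which replaces CDC20 late in mitosis, ran the other way, at -0.16 between the lactobacillus arrays and -0.20 for TL2937+ETEC against ETEC. ANAPC13, dim at 19.3 with TL2937 against 25.6 with ETEC, lay at -0.41 and was not well above background with TL2766.

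Among 12 genes listed as kinesins, spindle and cytokinesis, the median was -0.20 for TL2766+ETEC against ETEC. At least 1.2-fold lower were 3, where 8.81% of all genes were, and 2 (CDCA7 and CEP55) were higher, where 8.14% were. SPAG5, which tethers kinetochore microtubules, gave 361 with TL2937+ETEC and 264 with TL2766+ETEC, against 344 with ETEC. Its log2 differences of 0.45 between the lactobacillus arrays and -0.38 for TL2766+ETEC against ETEC matched those of CENPF in size. DLGAP5 and the kinesin KIF15 differed by 0.35 and 0.29 between the lactobacillus arrays. The kinesin KIF18A, dim at 20.8 and 19.6 on the lactobacillus arrays against 27.9 with ETEC, was lower with both, at -0.42 and -0.51. The kinesin KIFC1 was 0.30 above ETEC with TL2937. CDCA7, a chromatin factor, was above ETEC with both lactobacilli, at 0.72 with TL2937 and 0.58 with TL2766.

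Of 7 genes of the centromere and the chromosomal passenger complex, which KIF20A carries, 2 were at least 1.2-fold higher with TL2937 than with TL2766. That share was 4.25% over all genes. HJURP, the chaperone of the centromeric histone, gave 41.0 with TL2937+ETEC and 29.9 with TL2766+ETEC, against 40.0 with ETEC, and CENPI gave 71.3 and 52.4, against 52.8. Their log2 differences between the lactobacillus arrays were 0.46 and 0.45. The passenger subunit BIRC5, or survivin, differed by 0.26 in the same direction. INCENP, of the same complex, differed by only 0.089, and its kinase AURKB ran the other way, at -0.10. AURKB lay at -0.26 for TL2937+ETEC against ETEC and -0.16 for TL2766+ETEC against ETEC. HJURP lay at -0.42 for TL2766+ETEC against ETEC, CENPA, the centromeric histone, at -0.27 and CENPQ at 0.24. For TL2937+ETEC against ETEC, CENPI lay at 0.43, CENPA at -0.16 and CENPM at 0.16. The 6 genes of condensin, cohesin and chromosome structure had a median of 0.012 between the lactobacillus arrays, with the condensin subunits NCAPD2 at 0.33 and SMC4 at 0.15 and the histone gene H2AFZ at 0.058. Against ETEC, HMGB2 was higher with both lactobacilli (0.27 with TL2937 and 0.30 with TL2766), NCAPD2 lay at 0.28 and SMC4 at 0.13 with TL2937, and NCAPH2 at 0.13 and H2AFZ at 0.069 with TL2766.

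**Figure D4:**
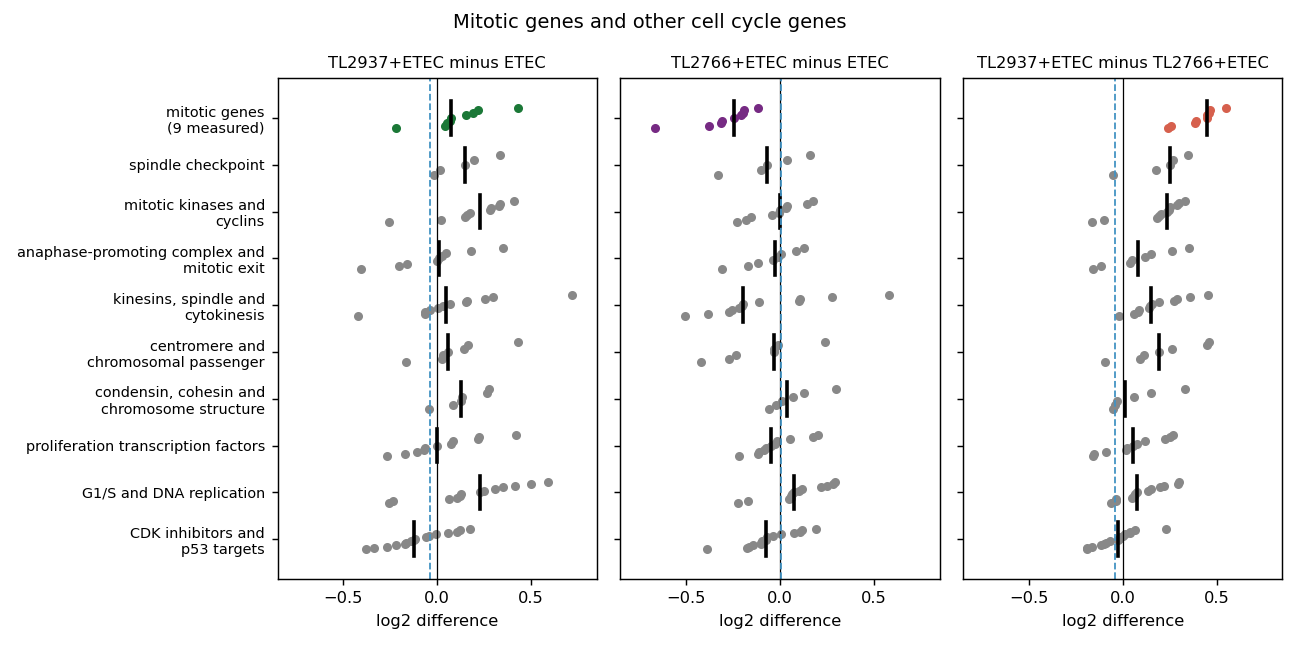
Log2 difference of the 9 measured mitotic genes (coloured) and of the detected genes of 9 other cell cycle lists (grey), with black bars at list medians and a dashed line at the median of all genes. The mitotic genes have medians of 0.075, -0.24 and 0.45 in the panels from left to right, and the genes of G1/S and DNA replication 0.23, 0.077 and 0.076.

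Of 13 detected genes of G1/S and DNA replication, which act before mitosis, 11 were above ETEC with TL2937 and 11 with TL2766. The share of all genes above ETEC is not given here, and the medians of all genes were -0.038 and 0.0028. CCND2 (-0.26 and -0.22) and CCND3 (-0.23 and -0.17) were below ETEC with both lactobacilli. Of the 13, 5 exceeded ETEC by 1.2-fold or more with TL2937 and 2 with TL2766, where 7.38% and 8.14% of all genes did. None of the 13 was lower by that much, where 12.3% and 8.81% of all genes were. MCM3, a subunit of the replicative helicase, gave 389 with TL2937+ETEC and 316 with TL2766+ETEC, against 258 with ETEC. The primase PRIM1 gave 1138 and 979, against 805. Both were thus above ETEC with TL2766, where the 9 mitotic genes were below it. MCM3 differed from ETEC by 0.59 and 0.30, PRIM1 by 0.50 and 0.28. UHRF1 lay at 0.41 above ETEC with TL2937 and RFC5 at 0.25 with TL2766. Between the lactobacillus arrays MCM3 differed by 0.30, CDC45 by 0.29 and PRIM1 by 0.22.

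Transcription factors of proliferation had medians of 0.00050 for TL2937+ETEC minus ETEC, -0.049 for TL2766+ETEC minus ETEC and 0.053 for the lactobacillus pair. MYBL2, part of the complex that drives mitotic genes in G2, differed by 0.25 between the lactobacillus arrays and by 0.22 for TL2937+ETEC against ETEC. RBL1 differed by 0.27 between the lactobacillus arrays. E2F8, a repressor of E2F targets, lay at 0.42 with TL2937 and 0.20 with TL2766 against ETEC, and 0.22 between them. NFYB lay at -0.27 for TL2937+ETEC against ETEC, and for TL2766+ETEC against ETEC E2F1 lay at -0.22 and NFYC at 0.18. Among 16 CDK inhibitors and p53 targets, 3 were at least 1.2-fold lower for TL2937+ETEC against ETEC and 1 for TL2766+ETEC against ETEC. The shares over all genes were 12.3% and 8.81%. In both comparisons 0 were higher, where 7.38% and 8.14% of all genes were, and the medians were -0.12 and -0.074. CCNG1, a p53 target, was lower with both lactobacilli, at -0.38 and -0.39, while BTG2 and the CDK inhibitor CDKN1B lay at -0.34 and -0.27 with TL2937. With TL2766, GADD45G lay at 0.19 and RRM2B at -0.18 against ETEC. Between the lactobacillus arrays no gene of this list passed 1.2-fold, CDKN3 lying at 0.23 and PLK3 and BTG2 at -0.19 each. Of all genes 4.25% passed it upward and 7.22% downward.

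Likeness to KIF20A was measured as the distance, in log2 units, between the pairs of differences from ETEC, over 3 arrays. Of 4911 other genes detected on all arrays the nearest were GON4L (distance 0.093), FAM189A2 (0.11), MDGA1 (0.11), CRISP2 (0.12) and PIK3IP1 (0.12). They lay between -0.32 and -0.13 for TL2937+ETEC against ETEC and between -0.63 and -0.55 for TL2766+ETEC against ETEC. No gene of the cell cycle lists was among them.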

How the data were processed

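RNA of 3 PIE cultures was labelled with Cy3, per the labels, and measured on 1-colour Agilent porcine arrays of 1 scan. The processed intensity deposited by the authors was made, per the file headers, with Agilent Feature Extraction 10.7.3.1, which fitted and subtracted a background surface and corrected a trend within each array. Mean and local background intensities, and the error of each spot, were deposited beside it per the file headers. No scaling between arrays and no genome build is given in the sources used here. The authors' value table held the same intensities, rounded.

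Control spots and outlier spots (9, 4 and 8 on the TL2937+ETEC, TL2766+ETEC and ETEC arrays) were left out. No saturation was recorded. Repeated spots were averaged as log2 values and the array's 75th percentile (505, 483 and 461) was subtracted. Of 43603 probes, 13898 carried a symbol, from the array name or from RefSeq (Sscrofa11.1) by accession, gene identifier or synonym. A gene was counted where the scanner software marked it as well above background on both arrays. The members, lists and rule for named genes (all members, up to 3 genes per list and comparison with the largest difference, and the 5 genes nearest to KIF20A) were chosen with earlier results of these data known. CCND2, CCND3, AURKB and INCENP are named besides. Promoter motifs were not analysed here. Alternatives were scaling by quantiles, medians, spike-ins or cyclic loess, normexp background correction, the authors' table, the mean of all probes, other background filters, outlier spots kept and folds of 1.1 and 1.5. Admitting probes named by description alone was chosen after seeing the data. The steps were tested on simulated data with noise set from the spread between spots. That noise holds no spread between cultures, so the simulation says nothing about such differences. Computation used R 4.3.3 with limma 3.58.1, and Python 3.11.15 with pandas 2.3.3, numpy 2.4.6 and matplotlib 3.10.9.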

Additional observations from a re-analysis of the deposited data

How the results depend on the processing

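All 9 measured genes stayed higher on the TL2937+ETEC than on the TL2766+ETEC array under every scaling, background correction and probe choice tried. All 9 were below ETEC on the TL2766+ETEC array under these settings too, except KIF23 (0.11) with the mean of all probes, including those named by description. The median log2 difference between the lactobacillus arrays was 0.24 with the normexp correction and 0.34 with that mean of all probes, against 0.45. The number of genes at least 1.2-fold lower for TL2766+ETEC against ETEC was 4, and became 2 among genes brighter than the median detected probe, where fewer genes are counted. It was 3 with probes named by description admitted, which ended the call of KIF20A (-0.10), and 5 with spike-in scaling, where 10.5% of all genes were lower. It was 8 at a fold of 1.1 (19.5% of all genes) and 1 at 1.5 (1.496%). For TL2937+ETEC against ETEC it was 1 at a fold of 1.1 (27.3%) and 0 under the other settings. Of the values of single genes under other settings, 253 moved by less than the spread between spots of a probe and 17 by more. KIF20A gave 8 of these 17, KIF23 gave 6, PLK1 gave 2 and CENPF gave 1. All of these moves arose with the normexp correction or with probes named by description admitted. Why these settings moved the values was not tested. Many of the 253 could move little or not at all. A gene with 1 named probe keeps its value with the mean of all named probes, and the authors' table holds the same intensities, rounded. The 253 is therefore not a measure of robustness. No paired analysis was possible because each group had 1 array.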
